A study of Mus musculus with 22 samples.

Results

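Interferon-stimulated genes are genes whose transcription rises when a cell senses an interferon. A list of 41 of them was followed across all libraries of a mouse study of Dnmt1, the enzyme that copies DNA methylation onto newly made strands. The members were matched by exact gene symbol: all 41 were found among the 34866 genes of the culture tables, and 40 among the 23911 genes of the cartilage table, where Oas1g was not listed. The study compared control mice, whose Dnmt1 carries loxP sites (labelled Dnmt1 flox), with conditional knockout mice (cKO, labelled Prrx1-Cre;Dnmt1 flox/flox), in which Cre is driven by Prrx1, a gene of limb mesenchyme. Cells outside that lineage keep Dnmt1. Primary chondrocytes from knee articular cartilage of mice at postnatal day 3 to 5 gave 3 libraries of each genotype at day 0, before treatment, and further libraries after 3 days with bone morphogenetic protein 2 (BMP2, labelled at 100 ng/µl), 4 of each genotype. Cartilage of mice at postnatal day 5, treated with collagenase to clear connective tissue, gave 4 control and 4 cKO libraries (labelled flox and cKO), with 2 males and 2 females in each.

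In the interferon pathway, secreted interferons bind paired receptors, and the receptor-bound kinases Jak1, Tyk2 and Jak2 pass the signal to transcription factors. Stat2 and Irf9 belong to a complex that binds the interferon-stimulated response element in the promoters of target genes, and a further element, the gamma-activated site, serves interferon gamma. The targets include RNA-binding and RNA-degrading antiviral proteins, the ubiquitin-like protein Isg15 and its enzymes, GTPases, and the signalling factors themselves. Cells can also enter this programme through sensors of RNA or DNA such as the products of Ddx58 and Ifih1, and loss of DNA methylation is known to raise transcripts of silenced repeats that such sensors can bind.

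Total counts per library were 41749300 to 51741500 at day 0, 14434200 to 18918700 at day 3 and 1100200 to 1888900 in cartilage. Levels are given as CPM, counts relative to library size after TMM scaling (trimmed mean of M-values), and values stand in the order of the replicate numbers. A level of 3 counts in a library, taken as the floor, corresponded to 0.0557 to 0.0691 CPM in day 0 libraries, 0.151 to 0.211 CPM in day 3 libraries and 1.54 to 2.75 CPM in those of cartilage, which covers counting error only. Where every library of a group was at the floor, a least fold is given. It divides the mean of the other group by the mean floor, and single libraries can lie below it. Dnmt1, the targeted gene, stood at 159, 147 and 148 CPM in control and 26.3, 25.7 and 31.3 CPM in cKO at day 0. On day 3 the gene stood at 83.5, 64.9, 65.9 and 68.9 CPM in control and 35.5, 36.4, 23.0 and 11.6 CPM in cKO, and in cartilage at 45.8, 40.96, 48.6 and 34.5 against 11.8, 13.1, 14.3 and 13.8 CPM. The groups did not overlap in any setting. Replicate 4 of cKO at day 3 stood apart from the other 3 cKO libraries: chi-square per degree of freedom over all genes was 124 to 138 against them and 7.42 to 10.9 among them. Its summed chondrocyte markers were 1781 CPM against 12985 to 18345 CPM in the other cKO libraries and 100601 to 122110 CPM in controls, so the label of chondrocyte cultures is weakest there. The labels name biological replicates of the cultures but not whether they came from separate animals or cultures, and p-values measure the spread between these libraries.

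Promoter sequences from RefSeq (GRCm38.p6, 250 bases before to 50 after each gene's start) were on hand for 33 of the 41 members; Parp9, Rtp4, Parp14, Oas1b, Mx1, Usp18, Oas2 and Mx2 had none. The core of the response element was searched as GAAANNGAAA and the core of the gamma-activated site as TTCNNNGAA, each on both strands and without regard to overlap between them. The response element was present in 15 of the 33 members (45.5%) and in 3.99% of the 27025 genes of the table. The gamma-activated site was present in 8 members (24.2%) and in 9.55% of all genes, and 19 members held one or the other. The stretches below belong to the 6 members with a response element and the largest fold changes, and the capitals mark the element, which reads TTTCNNTTTC where it lies on the other strand.
Oas1a: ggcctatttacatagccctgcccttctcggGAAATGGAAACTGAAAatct
Ifit1: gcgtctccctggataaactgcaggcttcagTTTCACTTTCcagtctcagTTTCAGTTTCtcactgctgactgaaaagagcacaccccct
Isg15: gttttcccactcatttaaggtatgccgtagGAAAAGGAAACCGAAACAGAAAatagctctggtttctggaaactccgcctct
Oas3: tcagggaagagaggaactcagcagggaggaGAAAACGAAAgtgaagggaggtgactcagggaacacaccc
Gbp2: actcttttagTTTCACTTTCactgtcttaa
Bst2: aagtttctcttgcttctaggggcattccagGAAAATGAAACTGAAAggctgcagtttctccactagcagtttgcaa
The Oas1a stretch lies at chr5:120907526-120907575 on the minus strand, with its last element 4 bases before the gene's start, the nearest of the 6. Ifit1, at chr19:34640755-34640843 on the plus strand, holds 2 separate elements, the nearer one 75 bases before the start. Isg15, at chr4:156200845-156200926 on the minus strand, holds 3 overlapping elements, the largest number among these stretches. Oas3 (chr5:120777695-120777764 on the minus strand) and Gbp2 (chr3:142620594-142620623 on the plus strand) hold 1 element each. The Gbp2 stretch is shorter because it runs into the first exon of the GENCODE M21 gene model. Bst2, at chr8:71537557-71537632 on the minus strand, holds 2 overlapping elements, the nearer one 114 bases before the start. CpG sites were counted in 300-base windows, and for a gene with several windows the highest count was taken. The median was 6 over the 33 members, from 1 in Ifit3, Ifit3b and Samd9l to 46 in Parp12, against a median of 8 over all genes. A match of letters is a description of the window and not evidence of binding.

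Several members are neighbours (GENCODE M21 gene models, GRCm38). The 5 Oas genes lie at chr5:120730333-120907521 and Oasl1 and Oasl2 at chr5:114896936-114937915. The 4 Ifit genes lie at chr19:34550694-34650009, the 3 Gbp genes at chr3:142530342-142638008, Mx1 and Mx2 at chr16:97447035-97560900, and Parp14, Dtx3l and Parp9 at chr16:35832874-35972605.

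In the untreated cultures, 29 of the 41 members were higher in cKO than in control and 2 were lower, while 33.0% of all 15530 genes tested were called higher and 31.6% lower. A member was called when edgeR's quasi-likelihood test over all genes gave an adjusted p (Benjamini-Hochberg) under 0.05. The 2 lower members were Isg20, an RNA exonuclease, and Ifi44. Stat2, Irf9, Ifit3b, Cmpk2 and Ifitm3 were tested and not called. Oas2, Oasl1, Oasl2, Mx2 and Rsad2 were too low to be tested, with 4 counts or fewer in every control library. The median log2 fold change (cKO over control) of the 36 members tested was 1.59, against 0.01 over all genes tested. In bulk RNA, fewer cells of a type and less RNA per cell cannot be told apart.

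After 3 days of BMP2, 36 of the 41 members were higher in cKO and 0 lower, against 25.5% and 22.6% of all 13924 genes tested. With edgeR 0 members were lower at an unadjusted p under 0.05, and DESeq2 called 40 members higher and 0 lower. DESeq2 was run on every gene with a count, including members that edgeR left untested. Its share over all genes is not given here. Cmpk2, a nucleotide kinase of mitochondria, was tested and not called. Oas1g, Oasl1, Rsad2 and Cxcl10 were too low to be tested, with 8 counts or fewer in every control library. The median log2 fold change of the 37 members tested was 2.77, against 0.01 over all genes tested. Without cKO replicate 4, 39 members were called higher and 0 lower, against 28.8% and 26.4% of all genes, with a median of 3.21 over the 40 members tested.

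In cartilage, 23 of the 41 members were higher in cKO and 0 lower, against 3.15% and 3.04% of all 8793 genes tested. With edgeR 0 members were lower at an unadjusted p under 0.05, and DESeq2 called 29 higher and 0 lower. The DESeq2 run again had no such filter, and its share over all genes is not given here. Stat2, Irf1 and Isg20 were tested and not called. The other 15 were not tested: Oas1g was not listed, and Ifit2, Ifit3b, Oas1a, Oas1b, Oas2, Oas3, Oasl1, Oasl2, Parp14, Mx1, Mx2, Gbp2, Cmpk2 and Sp100 held at most 7 counts in any control library. Each of those 14 had a larger total count in the cKO libraries than in the controls, against 44.9% of the 12591 untested genes with a count and no control library above 7. In 8 every cKO level (CPM) lay above every control, against 3.09% of those genes. The median log2 fold change of the 26 members tested was 2.87, against 0.01 over all genes tested. Library pool 1 held the 4 controls and pool 2 the 4 cKO samples of cartilage, so genotype and library pool cannot be told apart here.

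Many members passed the filter on low counts through the cKO libraries, where they are high. A narrower view takes the members with at least 10 counts in every control library. The same counts were not worked out over all genes, so those below have no matched background. At day 0 there were 23 of these, of which 17 were higher and 2 lower, with a median log2 fold change of 1.38. At day 3 there were 29, and 29 were higher, with no overlap between the groups and a median of 2.48. In cartilage there were 8, of which Irf9, Gbp7, Bst2, Ifitm3 and Lgals3bp were higher, and the median of the 8 was 1.80, below the 2.87 of all members tested there.

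**Figure D1:**
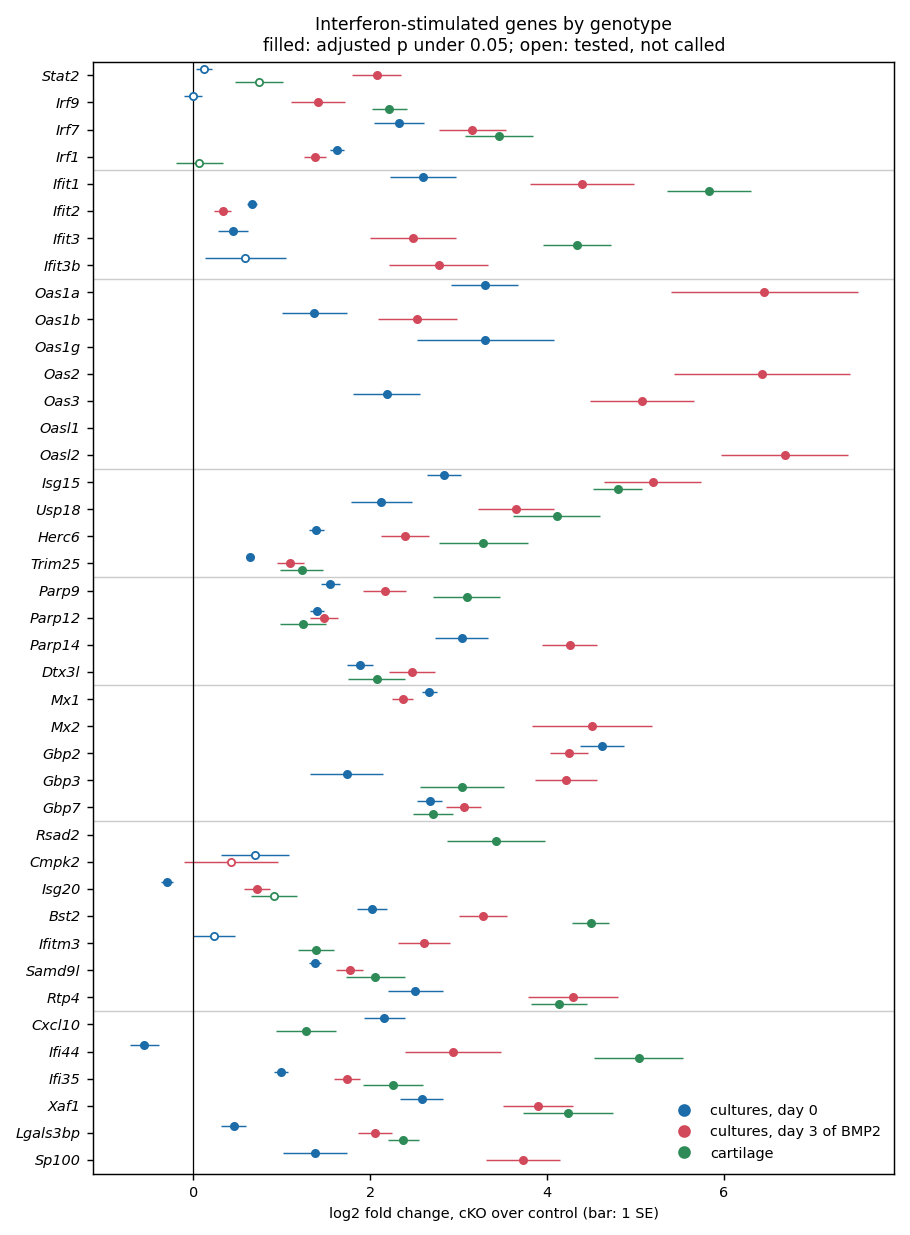
Log2 fold change of cKO over control (x axis, bars 1 SE) for each of the 41 members (y axis, grouped by role from top to bottom: signal transduction and transcription, IFIT family, OAS family, Isg15 system, PARP group, GTPases, other antiviral effectors, chemokine and other genes) at day 0, day 3 and in cartilage. Filled points were called and open points tested but not called; the 2 called points left of 0 are Isg20 and Ifi44 at day 0, and no point is drawn where a member was not tested.

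Among the transcription factors, Irf7, which drives interferon genes and is itself induced by interferon, was the 1 member of 4 called higher in all 3 settings. Irf7 stood at 0.147, 0.305 and 0.354 CPM in control and 1.27, 1.41 and 1.37 CPM in cKO at day 0. At day 3 it stood at 3.16, 2.84, 3.59 and 3.18 in control and 35.7, 32.96, 34.8 and 10.4 in cKO, and in cartilage at 5.25, 0.853, 0.917 and 3.604 in control and 26.03, 47.2, 33.9 and 24.1 in cKO. Each cKO library lay above every control of its setting, and the log2 fold changes were 2.32 ± 0.28 (SE), 3.15 ± 0.38 (SE) and 3.45 ± 0.38 (SE). Stat2 and Irf9, which belong to the complex that binds the response element, were not called at day 0, with log2 fold changes of 0.12 ± 0.09 (SE) and -0.001 ± 0.098 (SE). Irf9 stood at 5.96, 6.72 and 7.02 CPM in control and 6.77, 6.93 and 5.99 CPM in cKO there, so the groups overlapped. At day 3 Irf9 stood at 21.1, 23.1, 24.5 and 21.6 in control and 78.6, 66.1, 70.4 and 24.9 in cKO (log2 fold change 1.41 ± 0.31 (SE)), and Stat2 was at 17.2, 18.3, 18.6 and 13.1 in control against 93.7, 73.1, 80.5 and 35.6 in cKO. In cartilage Irf9 was 2.22 ± 0.202 (SE) higher on the log2 scale, while Stat2 at 0.75 had an adjusted p of 0.12. Irf1, a factor best known downstream of interferon gamma, was higher in cKO cultures by 1.63 ± 0.07 (SE) at day 0 and 1.38 ± 0.12 (SE) at day 3. Its cartilage levels, 69.8, 94.7, 81.6 and 185 in control and 54.6, 104, 209 and 99.1 in cKO, overlapped, with a log2 fold change of 0.07 ± 0.27 (SE).

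The IFIT proteins bind foreign RNA and block its translation. Ifit1 had the largest fold change of any member in the whole-number counts of cartilage. Its day 0 levels were 0.0839, 0.203 and 0.155 CPM in control and 1.22, 0.836 and 0.686 CPM in cKO. At day 3 they were 2.46, 3.901, 3.904 and 2.64 in control and 100.0, 77.7, 82.3 and 13.5 in cKO, and in cartilage 0.7505, 0, 0.917 and 1.54 in control and 44.5, 101, 53.5 and 34.5 in cKO. Every control library of cartilage was at the floor, so Ifit1 was at least 25.7-fold higher in these counts. In the estimated counts of the same libraries its log2 fold change was 4.24, below those of Ifit3b (5.501), Ifi44 (4.67), Ifit3 (4.63), Bst2 (4.59) and Rtp4 (4.26). The fitted log2 fold changes of Ifit1 at day 0 and day 3 were 2.598 ± 0.37 (SE) and 4.39 ± 0.59 (SE). Ifit3 stood at 1.05, 1.32 and 1.35 CPM in control and 1.704, 1.52 and 1.84 CPM in cKO at day 0, a small difference of 0.45 ± 0.17 (SE) on the log2 scale with an adjusted p of 0.043. At day 3 Ifit3 stood at 11.03, 13.1, 14.3 and 10.00 in control and 108, 68.4, 79.00 and 16.1 in cKO, and in cartilage at 2.25, 0.853, 1.83 and 1.03 in control and 26.03, 51.6, 24.1 and 25.8 in cKO, at least 14.01-fold higher against the floor. The lowest cKO library of day 3, replicate 4, was close to the highest control. Ifit3b, a near copy of Ifit3 with which it may share reads, was not called at day 0 (0.59 ± 0.46 (SE)) and was higher at day 3 (2.77 ± 0.56 (SE)). Ifit2 lies in the same cluster as the other 3 on chromosome 19 and moved least at day 3, from 13.3, 15.05, 15.6 and 13.05 CPM in control to 18.8, 18.3, 16.7 and 18.01 CPM in cKO. Its log2 fold change was 0.66 ± 0.06 (SE) at day 0 and 0.33 ± 0.09 (SE) at day 3.

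The OAS family includes enzymes that make the short oligoadenylates that switch on the RNA-cutting enzyme RNase L, though not every member need have this activity. The family's largest differences were at day 3, where the 5 members tested were all called higher and controls were near the floor. Oasl2 stood at 0.211, 0.334, 0.372 and 0.338 CPM in control and 43.2, 37.6, 45.9 and 6.49 CPM in cKO at day 3, a log2 fold change of 6.69 ± 0.72 (SE) with an adjusted p of 1.6e-04. Oas1a stood at 0, 0, 0.124 and 0.203 in control and 10.4, 8.28, 11.1 and 0.735 in cKO, and Oas3 at 0.351, 0.279, 0.248 and 0.203 in control and 12.8, 9.24, 12.8 and 2.45 in cKO. Every cKO library lay above every control for these genes, and Oas1a, whose controls were all at the floor, was at least 39.8-fold higher in the mean of the cKO libraries. Replicate 4 of cKO, at 0.735 CPM, was far below that mean. Oas2, also at the floor in controls, was at least 17.6-fold higher in the mean, with cKO replicate 4 at 0.674 CPM. Oas1b was higher by 2.53 ± 0.45 (SE) on the log2 scale. At day 0 the same family was barely expressed: the highest library of the 7 members was Oas1b in cKO replicate 2, at 0.858 CPM. There Oas1a was at 0.0419, 0.122 and 0.0443 in control and 0.691, 0.704 and 0.742 in cKO, Oas3 at 0.0629, 0.162 and 0.111 in control and 0.645, 0.484 and 0.445 in cKO, and Oas1g at 0, 0 and 0.0664 in control and 0.2302, 0.264 and 0.204 in cKO. The 4 members tested at day 0 were called, with log2 fold changes of 1.37 to 3.30. Oasl1 was tested in no setting and reached 16 counts at most in any cartilage library. In cartilage no OAS count reached the filter, and Oasl2 had 0 to 3 counts in control and 8 to 42 in cKO libraries. The Oas1 genes are close copies of one another, so reads may have been split between them.

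Isg15 is a ubiquitin-like protein that is joined to other proteins, and its enzymes are interferon targets too. All 4 members of this group were higher in cKO in all 3 settings. Isg15 stood at 0.399, 0.365 and 0.376 CPM in control and 2.901, 2.99 and 2.300 CPM in cKO at day 0. After 3 days it stood at 2.32, 1.73, 2.04 and 2.298 in control and 108, 83.1, 95.99 and 19.1 in cKO, and in cartilage at 2.25, 4.27, 3.67 and 2.57 in control and 77.2, 121, 95.4 and 63.7 in cKO. The log2 fold changes were 2.83 ± 0.19 (SE), 5.19 ± 0.54 (SE) and 4.798 ± 0.28 (SE), with adjusted p of 1.8e-06, 1.5e-04 and 1.9e-08, and no library overlapped the other group. Usp18, which removes Isg15 from its targets and damps the type I receptor, stood at 0.2097, 0.102 and 0.155 in control and 0.875, 0.6601 and 0.538 in cKO at day 0. Its levels were 1.55, 2.17, 1.92 and 2.23 in control and 34.8, 25.5, 30.7 and 8.21 in cKO at day 3 and 1.501, 0, 1.83 and 0.515 in control and 16.8, 20.99, 21.4 and 10.3 in cKO in cartilage. Against the floor, cartilage Usp18 was at least 7.63-fold higher. Herc6, the main ligase for Isg15 in mice, stood at 5.45, 5.01 and 6.16 in control and 14.5, 14.6 and 14.6 in cKO at day 0, and the cKO libraries were close together. At day 3 Herc6 was at 4.57, 5.18, 4.399 and 5.61 in control and 31.3, 30.1, 29.1 and 13.2 in cKO, and in cartilage at 3.75, 0, 0 and 3.09 in control and 13.4, 27.1, 23.2 and 16.4 in cKO. It rose by 2.39 ± 0.27 (SE) and 3.28 ± 0.503 (SE) on the log2 scale there. In the estimated counts of cartilage the log2 fold changes were smaller, 1.35 for Herc6 and 3.65 for Isg15. Trim25, a ubiquitin ligase that acts with the RNA sensor RIG-I, had smaller differences on a higher base. It was at 24.2, 23.7 and 23.2 in control and 37.6, 37.6 and 35.6 in cKO at day 0, 36.3, 34.4, 40.2 and 34.1 in control and 88.6, 81.3, 86.1 and 53.97 in cKO at day 3 and 10.5, 11.9, 6.42 and 10.3 in control and 23.5, 24.5, 26.8 and 18.95 in cKO in cartilage, with log2 fold changes of 0.64, 1.097 and 1.23.

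Parp9 and Dtx3l form a complex of an ADP-ribosyltransferase and a ubiquitin ligase, and their gene starts lie 681 bases apart on opposite strands of chromosome 16. Both were higher in cKO in all 3 settings. Parp9 stood at 2.54, 2.35 and 2.35 CPM in control and 7.69, 7.15 and 6.38 CPM in cKO at day 0. It was at 8.29, 8.58, 10.1 and 9.396 in control and 48.6, 44.8, 47.7 and 22.1 in cKO at day 3 and at 2.25, 0.853, 2.75 and 3.09 in control and 16.8, 21.9, 29.4 and 13.8 in cKO in cartilage. Dtx3l followed, at 1.804, 1.604 and 1.28 in control and 6.17, 6.18 and 5.06 in cKO at day 0. At day 3 Dtx3l was at 4.85, 5.41, 8.18 and 5.002 in control and 38.1, 33.9, 38.6 and 19.8 in cKO, and in cartilage at 4.503, 4.27, 7.34 and 6.18 in control and 23.5, 32.4, 26.8 and 13.8 in cKO. Their log2 fold changes were closest in the cultures: 1.55 ± 0.11 (SE) and 1.89 ± 0.15 (SE) at day 0, 2.17 ± 0.24 (SE) and 2.47 ± 0.26 (SE) at day 3, and 3.09 ± 0.38 (SE) and 2.07 ± 0.32 (SE) in cartilage, where Dtx3l was at 1.41 in the estimated counts. Their exons overlap by 458 bases on opposite strands, and whether strand was used in counting is not given, so a part of their counts may be shared. Parp12, another enzyme of the family, was at 6.92, 7.41 and 6.51 in control and 19.1, 19.2 and 16.8 in cKO at day 0, at 14.2, 17.2, 17.97 and 12.03 in control and 46.5, 44.4, 47.4 and 32.96 in cKO at day 3 and at 8.26, 9.39, 6.42 and 10.8 in control and 20.2, 22.7, 25.9 and 16.4 in cKO in cartilage. Its log2 fold changes, 1.403, 1.48 and 1.24, were the most even of the members called in all 3 settings together with those of Gbp7. Parp14 was higher by 3.03 ± 0.300 (SE) at day 0 and 4.25 ± 0.31 (SE) at day 3, and in cartilage held 0 to 7 counts in control and 6 to 30 in cKO libraries.

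Among the GTPases, Gbp2 had the largest fold change of any member at day 0. The guanylate-binding proteins coat membranes of intracellular pathogens. Gbp2 stood at 0.378, 0.122 and 0.288 CPM in control and 7.16, 5.81 and 6.47 CPM in cKO at day 0, a log2 fold change of 4.62 ± 0.25 (SE) with an adjusted p of 6.0e-07, and all 3 cKO libraries lay far above the controls. On day 3 the gene was at 1.33, 1.23, 2.23 and 1.76 in control and 35.5, 32.5, 33.00 and 23.8 in cKO, a difference of 4.25 ± 0.22 (SE). Gbp7 stood at 0.608, 0.751 and 0.753 in control and 4.19, 4.71 and 4.601 in cKO at day 0, 1.69, 2.06, 2.91 and 2.501 in control and 17.4, 20.5, 23.03 and 15.5 in cKO at day 3 and 10.5, 8.53, 15.6 and 10.3 in control and 60.5, 82.2, 91.9 and 55.99 in cKO in cartilage. It was higher by 2.67 ± 0.14 (SE), 3.06 ± 0.201 (SE) and 2.71 ± 0.23 (SE) on the log2 scale. Gbp3 differed less at day 0, at 0.126, 0.142 and 0.221 in control and 0.8289, 0.418 and 0.408 in cKO. At day 3 Gbp3 was at 1.69, 1.39, 0.929 and 0.676 in control and 27.7, 25.3, 22.4 and 12.1 in cKO, and in cartilage at 2.25, 5.12, 3.67 and 2.06 in control and 15.95, 45.5, 33.9 and 11.2 in cKO. All cKO libraries again lay above the controls. Mx1, a dynamin-like antiviral GTPase, was at 3.69, 4.26 and 4.52 in control and 27.9, 24.9 and 26.7 in cKO at day 0 and at 7.66, 6.41, 5.27 and 7.098 in control and 32.2, 35.5, 33.8 and 34.98 in cKO at day 3, where cKO replicate 4 was level with the other cKO libraries. Its log2 fold changes were 2.67 ± 0.08 (SE) and 2.37 ± 0.12 (SE). Mx2, its neighbour on chromosome 16, had 0 to 1 counts in control and 5 to 8 in cKO libraries at day 0. At day 3 Mx2 was at least 15.96-fold higher in the mean of the cKO libraries, of which replicate 4 was at 1.04 CPM. In cartilage Mx1 had at most 2 counts and Mx2 at most 12 in any library.

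Of the other antiviral effectors, Bst2 (tetherin), which holds budding viruses at the cell surface, had the smallest adjusted p of any member in cartilage. Bst2 stood at 2.496, 2.52 and 1.68 CPM in control and 10.5, 9.02 and 7.74 CPM in cKO at day 0. At day 3 it was at 10.9, 9.08, 8.86 and 7.91 in control and 109, 89.6, 109 and 47.5 in cKO, and in cartilage at 9.01, 10.2, 10.1 and 10.8 in control and 181, 299.99, 239 and 199.8 in cKO. The groups did not overlap in any setting, and in cartilage the log2 fold change was 4.49 ± 0.21 (SE) with an adjusted p of 1.2e-09. Rtp4, a transporter-like protein induced by interferon, was at 0.147, 0.162 and 0.3100 in control and 1.36, 1.23 and 0.965 in cKO at day 0, at 2.81, 1.73, 2.97 and 2.298 in control and 63.4, 55.6, 59.9 and 12.7 in cKO at day 3 and at 3.002, 3.41, 3.67 and 3.09 in control and 47.9, 80.5, 70.5 and 37.9 in cKO in cartilage. Its log2 fold changes were 2.51, 4.29 and 4.13. Samd9l, a restraint on viral translation and cell growth, was at 6.94, 6.86 and 7.26 in control and 19.1, 18.7 and 16.9 in cKO at day 0, 17.5, 18.6, 25.7 and 18.6 in control and 71.3, 75.1, 73.7 and 54.2 in cKO at day 3 and 8.26, 13.7, 3.67 and 4.63 in control and 26.03, 34.98, 41.03 and 20.7 in cKO in cartilage. Each of its cKO libraries lay above every control of its setting. Ifitm3, which keeps viruses from fusing with cell membranes, was not called at day 0 (9.73, 8.51 and 4.76 in control and 10.1, 9.88 and 7.24 in cKO) and was higher at day 3 and in cartilage, by 2.61 ± 0.29 (SE) and 1.39 ± 0.21 (SE). Rsad2 (viperin) and Cmpk2 are neighbours on chromosome 12, with starts 12752 bases apart on opposite strands. In cartilage Rsad2 was higher by 3.43 ± 0.55 (SE), at 0.7505, 3.41, 3.67 and 0.515 in control and 14.3, 41.98, 20.5 and 8.61 in cKO. After 3 days it was at 0, 0.223, 0 and 0.2704 in control and 2.16, 1.46, 1.51 and 0.245 in cKO, and replicate 4 of cKO lay within the controls. Cmpk2 at day 3 stood at 0.421, 0.836, 2.23 and 1.08 in control and 1.92, 0.656, 2.26 and 1.35 in cKO, and its groups overlapped, with a log2 fold change of 0.43 ± 0.53 (SE).

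Isg20 and Ifi44 were called lower in cKO at day 0 and higher at day 3, and the day 0 calls were the less firm. Isg20 stood at 29.1, 30.2 and 31.5 CPM in control and 23.3, 27.4 and 23.4 CPM in cKO at day 0, where all cKO libraries were below the controls (-0.296 ± 0.07 (SE), adjusted p = 0.0047). On day 3 the gene was at 8.29, 8.02, 6.88 and 9.67 in control and 11.8, 13.8, 12.5 and 16.1 in cKO, and all cKO libraries were above the controls (0.72 ± 0.14 (SE), adjusted p = 0.0035). In cartilage the levels were 32.3, 31.6, 53.2 and 39.6 in control and 112, 99.7, 41.03 and 54.3 in cKO, with an adjusted p of 0.051. Ifi44, an interferon-induced protein, stood at 1.61, 1.71 and 1.68 in control and 1.197, 1.25 and 0.965 in cKO at day 0 (-0.55 ± 0.16 (SE), adjusted p = 0.015). The day 0 call of Ifi44 was lost with DESeq2, in a joint fit of all 14 cultures (adjusted p = 0.46) and without cKO replicate 3 (adjusted p = 0.052), and that of Isg20 in the joint fit (adjusted p = 0.07). It was at 5.198, 6.58, 4.09 and 6.89 in control and 56.8, 51.03, 58.2 and 8.39 in cKO at day 3, where replicate 4 of cKO was just above the highest control. In cartilage Ifi44 was at 0, 0, 1.83 and 1.03 in control and 20.99, 37.6, 29.4 and 19.8 in cKO, at least 11.8-fold higher against the floor. The difference between the genotype effects of day 3 and day 0 was 0.998 ± 0.17 (SE) for Isg20 (adjusted p = 0.0019) and 3.48 ± 0.72 (SE) for Ifi44 (adjusted p = 0.0063).

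The last group holds a chemokine and induced genes of varied function. Cxcl10, a chemokine that draws T cells, was at 0.671, 0.6902 and 0.974 CPM in control and 3.57, 2.596 and 4.25 CPM in cKO at day 0, a log2 fold change of 2.16 ± 0.23 (SE). In cartilage it was higher by 1.27 ± 0.34 (SE), with an adjusted p of 0.037. That call was lost on leaving out any 1 of 6 of the 8 libraries (all but control replicate 4 and cKO replicate 1), with adjusted p of up to 0.093. Lgals3bp, a secreted glycoprotein that binds galectin-3, was among the most abundant members and was at 22.4, 21.9 and 25.2 in control and 36.95, 34.5 and 24.01 in cKO at day 0, the 1 called member there whose groups overlapped. At day 3 it was at 119.8, 89.7, 99.4 and 108 in control and 493, 458, 498 and 281 in cKO, and in cartilage at 23.3, 26.5, 37.6 and 23.2 in control and 129, 165, 134 and 136 in cKO. Its log2 fold changes were 0.46, 2.05 and 2.38. Ifi35, an interferon-induced leucine zipper protein, was at 4.99, 5.26 and 4.87 in control and 10.6, 9.75 and 9.68 in cKO at day 0, 8.64, 7.69, 8.43 and 8.04 in control and 28.4, 30.2, 30.6 and 19.8 in cKO at day 3 and 3.75, 10.2, 4.59 and 3.09 in control and 18.5, 34.1, 26.8 and 20.7 in cKO in cartilage. Xaf1, an antagonist of the apoptosis inhibitor XIAP, was at 0.315, 0.487 and 0.288 in control and 2.62, 2.11 and 1.89 in cKO at day 0, 2.67, 1.73, 1.92 and 0.946 in control and 33.6, 28.2, 34.2 and 12.6 in cKO at day 3 and 0, 0, 0.917 and 2.57 in control and 20.99, 25.4, 26.8 and 14.6 in cKO in cartilage. In both genes every cKO library lay above every control of its setting, and Xaf1 had the larger log2 fold changes, 2.59, 3.901 and 4.24. The last was 2.83 in the estimated counts and 5.84 without control replicate 4. Sp100, a part of nuclear bodies, was higher by 1.38 ± 0.36 (SE) at day 0 and 3.72 ± 0.42 (SE) at day 3. Across the 3 settings, 18 of the 41 members were called higher in each, 18 of the 24 that were tested in all 3, against 1.49% of the 8365 genes tested in all 3. These were Irf7, Ifit1, Ifit3, Isg15, Usp18, Herc6, Trim25, Parp9, Parp12, Dtx3l, Gbp3, Gbp7, Bst2, Samd9l, Rtp4, Ifi35, Xaf1 and Lgals3bp. Many of them passed the cartilage filter through the cKO libraries, where they are high. Of the 8 members with at least 10 counts in every cartilage control, only Gbp7, Bst2 and Lgals3bp were higher in all 3 settings. At day 0 the calls of Ifit3 and Lgals3bp were lost in 9 and 5 of 11 alternatives, with adjusted p of up to 0.54 and 0.097.

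**Figure D2:**
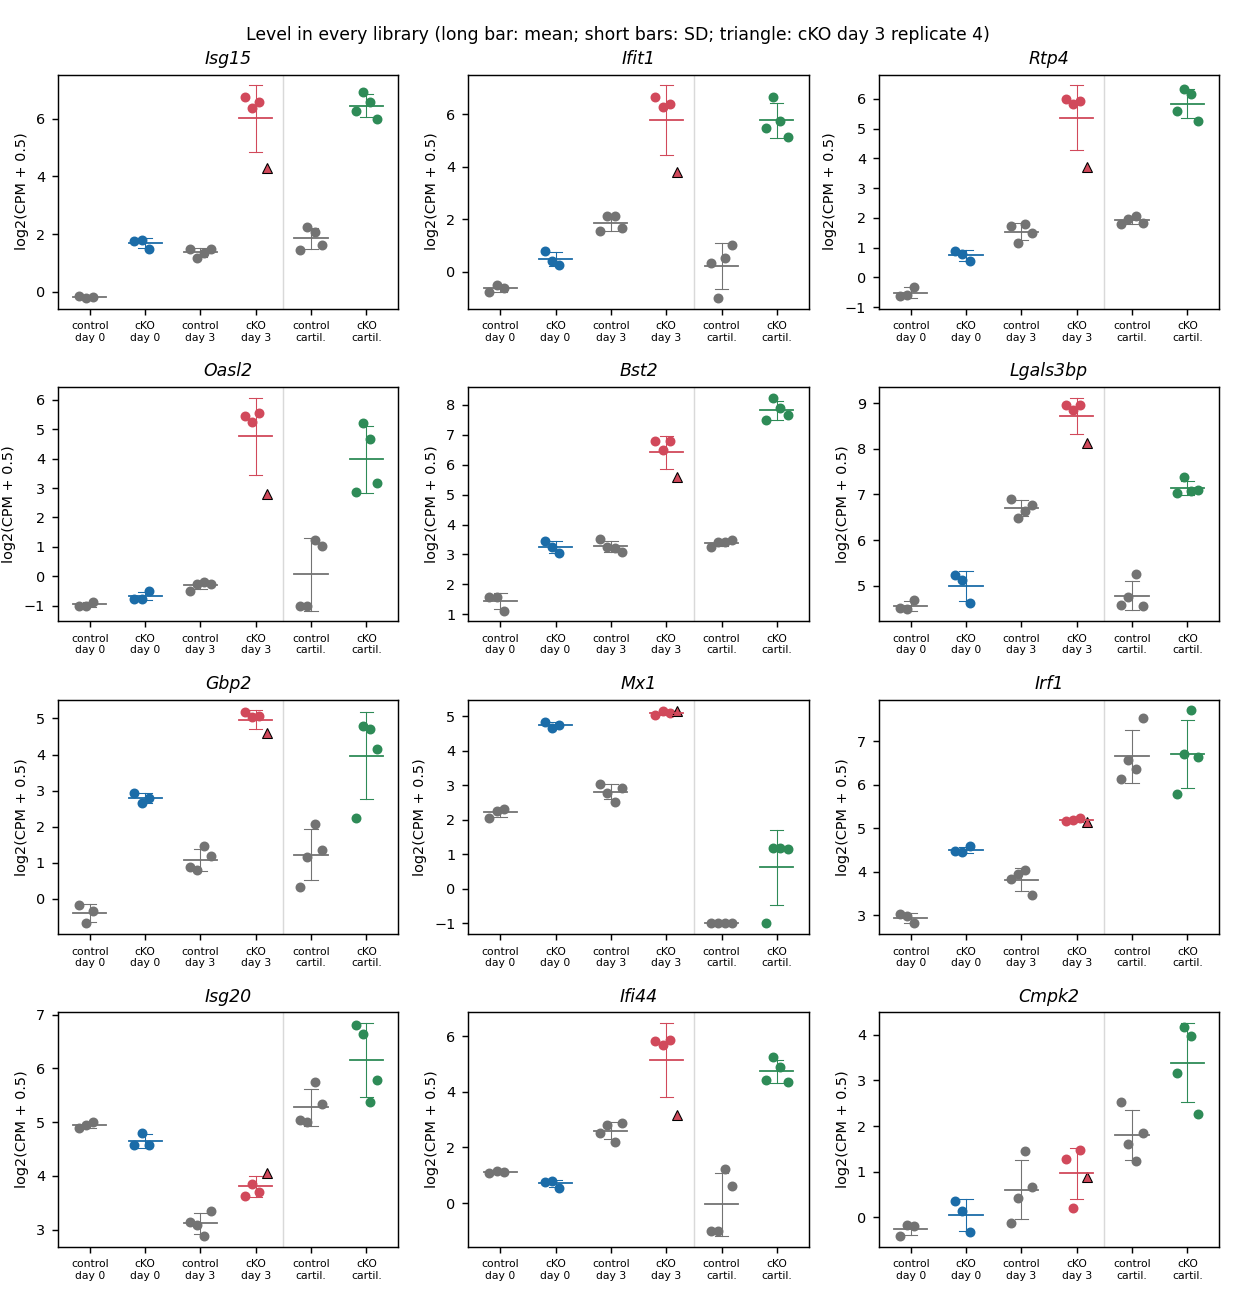
Level of 12 members in every library, as log2(CPM + 0.5) on the y axis, by genotype and setting on the x axis (points: libraries; long bar: mean; short bars: SD; triangle: cKO replicate 4 at day 3). Isg15, Ifit1 and Rtp4 are higher in every cKO library than in the controls of the same setting, Isg20 and Ifi44 are lower in cKO at day 0 and higher at day 3, and the groups of Cmpk2 overlap in each setting.

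Levels of different genes were compared per kilobase of exon, in the cultures alone. In control cultures of day 0 the order was Isg20 (16.3 ± 0.65 CPM per kb, SD, n = 3), Ifitm3 (11.3 ± 3.82) and Lgals3bp (8.13 ± 0.62). The libraries of Ifitm3 ran from 7.02 to 14.4 CPM per kb, so its place next to Lgals3bp is within its spread. In cKO cultures of day 3 Ifitm3 came first at 270.6 ± 96.5 CPM per kb (SD, n = 4), then Lgals3bp at 152.0 ± 36.1 and Isg15 at 101.2 ± 52.3. Replicate 4 set most of that spread, with Ifitm3 at 126 CPM per kb against 325 in the highest library.

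Replicate 4 of cKO at day 3 had the lowest level of the 4 cKO libraries for 33 of the 37 members tested there. Its level was 43.2% of the mean of the other 3 cKO libraries in the median member, from 7.41% for Oas1a to 127% for Isg20. Ifit2, Mx1, Cmpk2 and Isg20 were the members tested in which it was not the lowest. It still lay above every control library in 37 of all 41 members, the exceptions being Oas1g, Rsad2, Cmpk2 and Cxcl10. Neither count was worked out over all genes, where this library also stood apart from the other cKO libraries. The members tested that were closest to that mean were Ifit2 (101%), Mx1 (103%), Irf1 (95.9%) and Cmpk2 (83.5%). Oas1a, Ifi44 (15.2%), Oasl2 (15.4%) and Ifit1 (15.5%) were furthest below. In the same library Dnmt1 was the lowest of all day 3 libraries, summed skeletal muscle markers were 133 CPM against 1162 to 1927 CPM in the other cKO libraries, and summed osteoclast markers were 381 CPM against 99.8 to 117 CPM. The part of these differences in the members' levels was not tested.

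**Figure D3:**
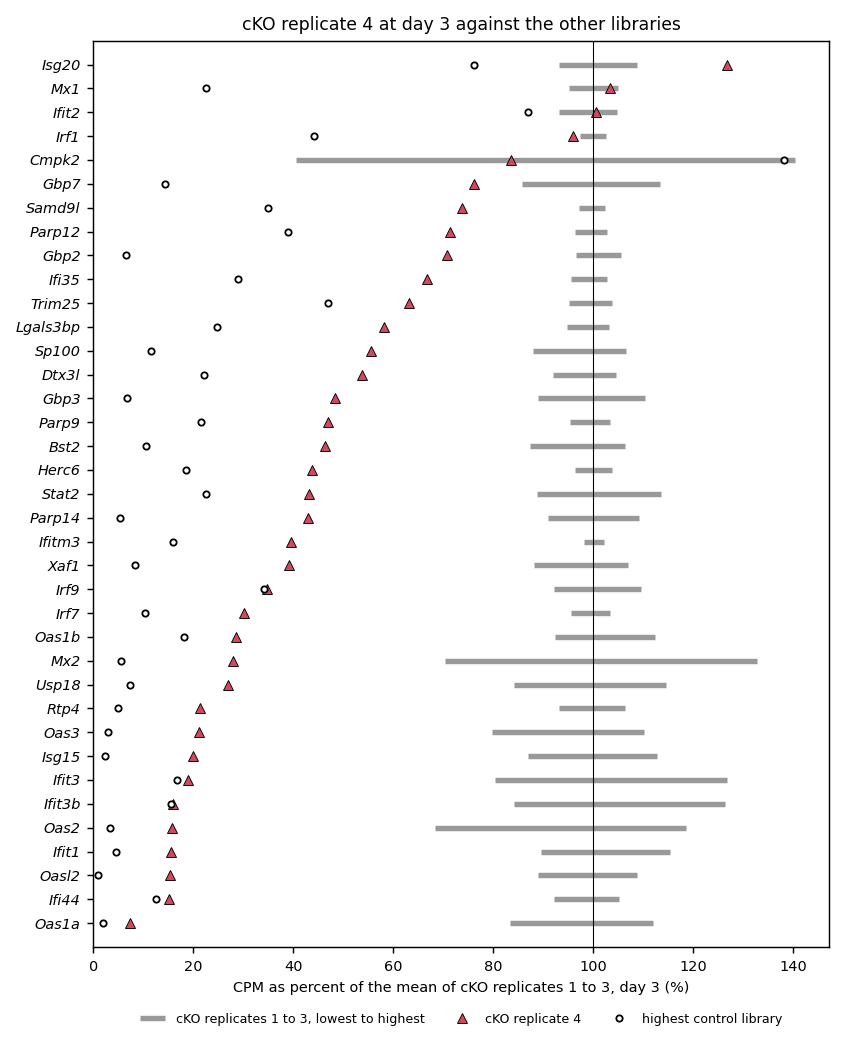
CPM of the 37 members tested at day 3 as percent of the mean of cKO replicates 1 to 3 (x axis), by member (y axis): grey bars span cKO replicates 1 to 3, triangles are cKO replicate 4 and open circles the highest control library. The triangle is left of the grey bar in 33 members, and Isg20 is the rightmost triangle at 127%.

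From day 0 to day 3 of BMP2 the members rose in control cultures as well. In control, 30 of the 41 members rose and 3 fell, against 28.1% and 28.8% of all 14909 genes tested. The largest rises were Ifit1 (4.32 ± 0.79 (SE)), Oasl2 (4.04 ± 1.495 (SE), at least 4.62-fold against the floor), Ifit3b (3.88 ± 0.69 (SE)) and Usp18 (3.54 ± 0.55 (SE)) on the log2 scale. The call of Oasl2 was lost in 5 alternatives. Mx2 was called too, but was at or under 3 counts in every control library of both days, so no fold is given, and its call was lost in 4 of 11 alternatives. Cxcl10 (-2.24), Isg20 (-1.98) and Ifit2 (-0.23) fell. The calls of Cxcl10 and Ifit2 were lost in 4 and 6 of 12 alternatives. In cKO, 36 members rose and 2 fell, against 32.4% and 29.8% of all genes tested. Here the largest rises were Oasl2 (7.83 ± 0.73 (SE)), Ifit1 (6.12 ± 0.62 (SE)), Ifit3b (6.06 ± 0.68 (SE)), Oas2 (5.68 ± 0.87 (SE)) and Rtp4 (5.23 ± 0.51 (SE)), while Isg20 (-0.98) and Ifit2 (-0.58) fell again. Of the 40 members tested, 29 rose in both genotypes, against 20.7% of all genes tested. The median log2 change was 1.66 in control and 3.09 in cKO, against 0.00 and 0.02 over all genes. Day, BMP2 and the count table changed together, so the source of the change cannot be told apart, and these contrasts share libraries with the genotype comparisons.

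By the test of the difference itself, the log2 change was higher in cKO than in control for 11 members and lower for 1. The shares of all 14909 genes tested were 9.94% and 6.89%. The largest differences were Ifi44 (3.48 ± 0.72 (SE), adjusted p = 0.0063), Oas3 (2.900 ± 0.89 (SE), 0.041), Gbp3 (2.48 ± 0.64 (SE), 0.02), Sp100 (2.36 ± 0.598 (SE), 0.018) and Ifitm3 (2.35 ± 0.44 (SE), 0.0038). Stat2, Irf9, Isg20, Bst2, Ifi35 and Lgals3bp were the others, of which Isg20 fell in both genotypes and fell less in cKO. Ifit2 was the member with the lower change, as it fell in both genotypes and fell further in cKO (-0.35 ± 0.11 (SE), adjusted p = 0.043). Irf1, Mx1, Gbp2 and Cmpk2 also had a log2 change no larger in cKO than in control, but the difference was not called. Without cKO replicate 4 of day 3 the number called was 28, with 27 higher in cKO and 1 lower. The shares of all 14833 genes tested in that fit were 15.7% and 11.6%, and all 12 members called with every library were among the 28. Members gained included Isg15 (2.68, edgeR adjusted p = 7.6e-06), Ifit3 (2.35, adjusted p = 3.6e-05) and Rtp4 (2.10, adjusted p = 0.0011). Leaving out control replicate 1 or 2 of day 0, or cKO replicate 2 or 3 of day 0, gave 7. The shares of all genes in those fits are not given here. Of the 12 calls, 5 were kept in every alternative, while those of Oas3, Irf9, Ifit2 and Bst2 were lost in 13, 12, 12 and 11 of 18.

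**Figure D4:**
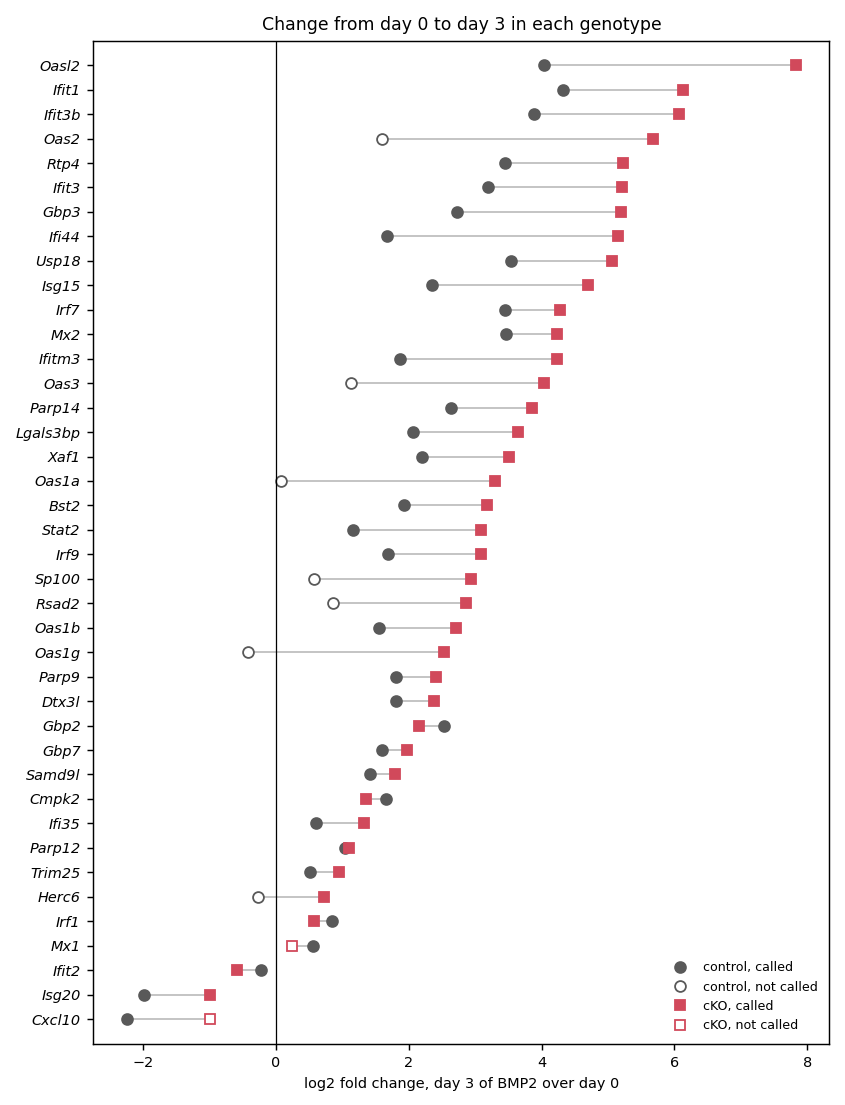
Log2 fold change from day 0 to day 3 (x axis) of the 40 members tested (y axis) in control (circles) and cKO (squares), filled where called. The square lies right of the circle in 35 members, and left of it or level in Irf1, Ifit2, Mx1, Gbp2 and Cmpk2.

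In cartilage the sexes were compared with each other. By edgeR, the genotype effect differed between females and males in 0 of 31 members tested, against 0.0103% of all genes tested (1 of 9687). At an unadjusted p under 0.05 there were 4, Isg20, Cxcl10, Ifi44 and Xaf1, and DESeq2 called 0. Isg20 was the one furthest along: its male libraries were at 32.3 and 31.6 CPM in control and 112 and 99.7 CPM in cKO, and its female libraries at 53.2 and 39.6 against 41.03 and 54.3 CPM (-1.66 ± 0.32 (SE), adjusted p = 0.36). With no filter on low counts this difference was called for Isg20 (edgeR adjusted p = 0.0037).

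The interferons themselves were at or near 0 in the cultures. Summed over 21 ligand genes the level was at most 1.24 CPM in any culture library, and Ifnb1 had at most 1 count. Of these genes 1 was listed in the cartilage table, at 0 CPM in all libraries but 1, where it was at 0.892 CPM. Ifnz was the 1 ligand tested in cultures and was not called on either day (0.21 ± 0.43 (SE) and 0.64 ± 0.65 (SE)). Of the 6 receptors, Ifnlr1 was higher in cKO on both days (1.56 ± 0.33 (SE) and 1.41 ± 0.28 (SE)), from 0.873 ± 0.334 CPM (SD, n = 4.0) to 2.33 ± 0.2997 CPM (SD, n = 4.0) at day 3. Ifnar1 and Ifnar2, the receptor of type I interferon, fell slightly in cKO at day 0 (-0.15 ± 0.04 (SE) and -0.23 ± 0.06 (SE)), and Ifnar2 rose at day 3 (0.51 ± 0.07 (SE)). For interferon gamma, Ifngr2 rose by 0.17 at day 0, and Ifngr1 was at 0.13 with an adjusted p of 0.12. Il10rb rose at day 3 (0.57 ± 0.14 (SE)). The 5 receptors tested in cartilage had log2 fold changes of -0.38 to 0.15 and adjusted p of 0.27 to 0.81.

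Of the kinases bound to the receptors, Tyk2 rose on both days (0.501 ± 0.05 (SE) and 0.54 ± 0.102 (SE)), Jak1 likewise (0.23 ± 0.03 (SE) and 0.45 ± 0.15 (SE)), and Jak2 fell (-0.73 ± 0.05 (SE) and -0.89 ± 0.11 (SE)). In cartilage Jak1 (-0.19 ± 0.13 (SE)) and Jak2 (0.04 ± 0.15 (SE)) were not called.

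Among 12 sensors, adaptors and upstream kinases, 8 were higher and 2 lower at day 0, 6 were higher and 0 lower at day 3, and 3 were higher in cartilage, where 5 were tested. Of all genes tested, 33.0%, 25.5% and 3.15% were called higher in these settings, and 31.6%, 22.6% and 3.04% lower. Ifih1, a sensor of long double-stranded RNA and itself induced by interferon, led this list in cartilage, at 2.25, 5.12, 2.75 and 1.54 CPM in control and 29.4, 30.6, 26.8 and 18.95 CPM in cKO (3.21 ± 0.32 (SE), adjusted p = 7.4e-06), with no overlap. Zbp1 had the largest rise of the pathway from day 0 to day 3 in cKO (5.197 ± 0.77 (SE)). For the 9 genes of MHC class I presentation, 6, 9 and 6 were higher at day 0, day 3 and in cartilage, and all 6 tested in cartilage were called. Psmb8, an immunoproteasome subunit, had the largest fold change of the pathway lists on both days (4.52 ± 0.39 (SE) and 4.43 ± 0.43 (SE)). On day 3 the gene was at 0.983, 1.45, 1.301 and 0.879 in control and 29.8, 30.5, 31.2 and 9.01 in cKO, and in cartilage higher by 2.45 ± 0.51 (SE). Psmb9 rose by 2.63 ± 0.53 (SE) at day 0, and Nlrc5, an activator of these genes, by 3.87 ± 0.28 (SE) at day 3. From day 0 to day 3 Psmb8 and Psmb9 rose in control too (3.87 ± 0.65 (SE) and 3.37 ± 0.597 (SE)), and Nlrc5 rose in cKO (4.73 ± 0.42 (SE)). Among the pathway genes called, the difference between the genotype effects of the 2 days was largest for Nlrc5 (3.25 ± 0.59 (SE)) and H2-K1 (3.05 ± 0.28 (SE)). Of 6 negative regulators, 2 were higher and 2 lower at day 0 and 3 were higher at day 3 (Socs1, Socs3 and Irf2). The 5 tested in cartilage had adjusted p of 0.10 to 0.98.

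**Figure D5:**
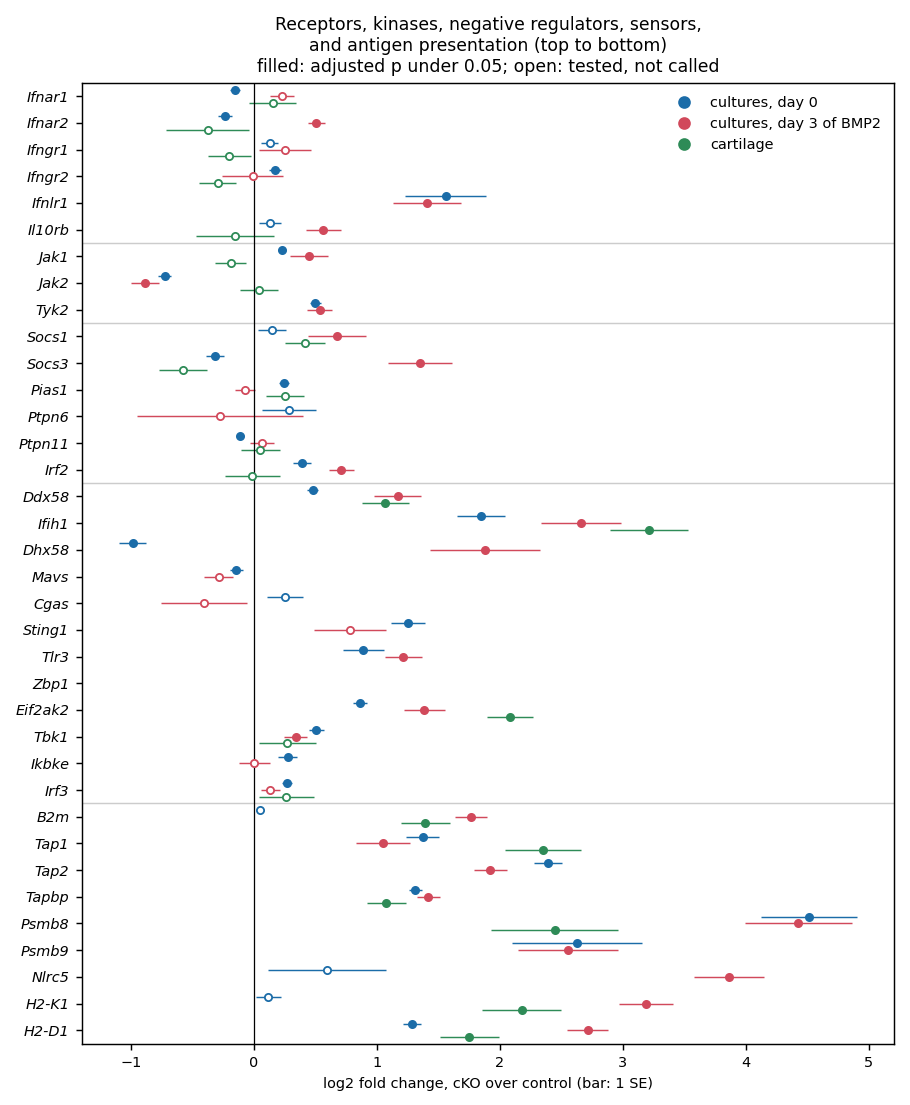
Log2 fold change of cKO over control (x axis, bars 1 SE) for other genes of the pathway (y axis), in blocks for receptors, kinases, negative regulators, sensors and upstream kinases, and MHC class I presentation. Filled points were called; the receptors lie close to 0 apart from Ifnlr1, while the genes of MHC class I presentation lie to the right of 0 at day 3 and, where tested, in cartilage.

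Markers of other cell types moved with genotype in the cultures, as did many genes. Of all genes tested, 33.0% were called higher and 31.6% lower at day 0, and 25.5% and 22.6% at day 3. In cartilage these shares were 3.15% and 3.04%. The counts of called markers below come from short lists and are to be read beside these shares. The 12 leukocyte and macrophage markers ranged over 8.10 to 9.08 CPM (summed) in control and 11.6 to 14.4 CPM in cKO at day 0, with 5 of the 7 tested called higher. At day 3 they summed to 8.01 to 11.6 CPM and 22.3 to 33.1 CPM, with 4 of the 6 tested called higher, led by Fcer1g (6.56 ± 0.31 (SE)). C1qa, C1qb, C1qc and Tyrobp were at 0 counts in every day 3 library, and Ptprc had at most 7. Skeletal muscle markers summed to 5.23 to 5.81 CPM against 22.8 to 29.8 CPM at day 0 and 1.24 to 1.56 CPM against 133 to 1927 CPM at day 3, with 3 of 4 and 6 of 6 tested markers higher in cKO. At day 0 fibroblast and osteoblast markers summed to 4954 to 7249 CPM in control and 2869 to 3519 CPM in cKO (5 of 6 tested lower), and endothelial markers to 1.17 to 1.43 and 3.29 to 3.77 CPM (2 of 2 tested higher). Osteoclast markers there summed to 159 to 164 CPM in control and 72.9 to 87.1 CPM in cKO. Of the 4 tested, 1 was called higher, 1 was called lower and 2 were not called. At day 3, 3 of 7 fibroblast and osteoblast markers were higher. The 9 chondrocyte markers were all lower in cKO on both days. In cartilage the leukocyte markers overlapped (69.0 to 142 CPM in control and 61.2 to 135 CPM in cKO), and the 4 tested were not called. Muscle markers there were too low to be tested, 3 of 3 osteoclast markers tested were lower (126 to 458 CPM summed in control and 59.6 to 119 CPM in cKO), and 2 of 9 chondrocyte markers were lower. Granulocyte markers summed to at most 6.18 CPM in any library and to 0 CPM in every cKO cartilage library. Whether these shifts have a part in the members' levels was not tested.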

How the data were processed

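RNA sequencing was done on cultured chondrocytes (a directional kit, per the labels' protocols) and on cartilage by BRB-seq, a 3′ method with molecular identifiers. For the cultures the authors deposited estimated counts per gene, which were rounded to whole numbers; their aligner and counter are not given in the sources used here. For cartilage the authors deposited whole-number counts, the main values, and a table of estimated counts, used as an alternative. For cartilage the submitters' processing notes name UMI-tools 1.1.1, Trim Galore 0.6.7, HISAT2 2.2.1, featureCounts 2.0.1, DESeq2 1.34.0 and the build GRCm38; whether identifiers were collapsed is not stated, and if not, amplified copies count as separate reads.

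Symbols for 34582 of 34866 culture gene IDs came from a table of gene names. Counts were scaled by TMM, filtered with filterByExpr and tested with edgeR 4.0.16 (quasi-likelihood, R 4.3.3), with Benjamini-Hochberg adjustment over all genes tested. Each genotype comparison used its own setting's libraries; cartilage had sex as a covariate, and the day changes and their difference used all cultures. Total counts were 1100200 to 51741500 per library, so low members are least precise in cartilage. The test was also run on simulated counts, with far fewer changed genes than were called in the cultures. That run is therefore no support for the calls there, and its outcome is not given. Alternatives were DESeq2 1.42.0, upper-quartile scaling, no filter, a replicate block, other sets of libraries in the fit, no sex term, estimated counts, and leaving out each library. All 41 members are named. Values in every library are given for up to 5 called members per direction and comparison with the largest change and a mean log2 CPM of at least 1, for members called in opposite directions, and for those higher in all 3 settings. The members and lists were chosen with earlier results of these data known. 1 gene of the pathway lists is not reported here.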

Additional observations from a re-analysis of the deposited data

Results flagged for a closer look

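In groups of 4 libraries, 14 of 126 pairs of member and group had 1 library far from the other 3 by Dixon's test, where chance gives about 1 in 20. The pairs share libraries and are not independent, and the rate over all genes is not given here. An excess over 1 in 20 can therefore not be read from this count. In cKO replicate 4 of day 3 these were Herc6 (13.2 CPM against 29.1 to 31.3), Ifi44 (8.39 against 51.0 to 58.2), Ifitm3 (85.5 against 212 to 221), Irf7 (10.4 against 33.0 to 35.7), Parp9 (22.1 against 44.8 to 48.6) and Rtp4 (12.7 against 55.6 to 63.4). Among controls of day 3, replicate 3 was high in Dtx3l (8.18 CPM against 4.85 to 5.41) and Samd9l (25.7 against 17.5 to 18.6), and replicate 1 in Oas2 (0.140 against 0 in the others). That Oas2 level is below the floor of its library, 0.211 CPM. In cartilage, cKO replicate 2 was high in Cxcl10 (49.0 CPM against 22.4 to 26.8) and Ifit3 (51.6 against 24.1 to 26.0), and cKO replicate 4 was low in Irf9 (39.6 against 56.0 to 57.9). Control replicate 4 of cartilage was high in Ifitm3 (175 CPM against 89.9 to 99.1) and low in Stat2 (14.9 against 22.9 to 23.3).

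The genotype effect differed between day 3 and day 0 in 12 members by the test of the difference. On the log2 scale the difference was 1.93 for Stat2, 1.397 for Irf9, 2.900 for Oas3, 2.48 for Gbp3, 0.998 for Isg20 and 1.24 for Bst2. It was 2.35 for Ifitm3, 3.48 for Ifi44, 0.73 for Ifi35, 1.58 for Lgals3bp, 2.36 for Sp100 and -0.35 for Ifit2.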

How the results depend on the processing

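No called member changed direction under any alternative run. With no filter on low counts the members called in cartilage rose from 23 to 35. Isg20 and Stat2 were the gains among members tested with the filter, and the other gains were members the filter had left out. Members with a difference between the sexes went from 0 to 1 (Isg20), and the cause was not tested. The share of all genes called without the filter is not given here. Leaving out 1 library gave 7 to 28 members with a difference between the genotype effects of the days. The same range was 29 to 30 at day 0, 36 to 39 at day 3 and 22 to 26 in cartilage. In every alternative, 26 of 31 calls were kept at day 0, 35 of 36 at day 3, 21 of 23 in cartilage and 5 of 12 for the difference between days. Replicate numbers gave no clear pairing of the libraries. Correlations of same-numbered deviations were -0.047, -0.063 and 0.14 at day 0 and -0.14, -0.094, -0.102 and -0.064 at day 3. In cartilage they were 0.26, 0.083, -0.082 and 0.12. In no setting did every library correlate best with its own number. With the replicate number as a block, 30, 35 and 23 members were called at day 0, at day 3 and in cartilage, and 14 for the difference between days. For these runs and those with 1 library left out, shares of all genes are not given here, apart from those above without cKO replicate 4. Depth limits cartilage most, where 14 listed members were not tested.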
